A study of Mus musculus with 60 samples.

Results

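The maxilla of mouse embryos at E11.5, where E stands for embryonic day, was compared between its distal and its proximal piece. The arrays were chosen by their titles alone: 3 arrays labelled distal maxilla and 3 labelled proximal maxilla, 6 of 60 arrays in all, and every gene with a probe set was compared. The series measured total RNA of C57Bl/6 embryos on a mouse expression array, in distal and proximal pieces of the maxilla and the mandible from E10.5 to E14.5, with 3 arrays for each of 20 groups. The labels record no treatment and no altered allele in any group. Whether the arrays that share a group are different embryos, litters or pools is not recorded. The p-values rest on the spread between arrays within a group, pooled over all 20 groups of 60 arrays, and that spread may be technical. All 6 arrays carry the label of batch 3, as do the mandible arrays of E11.5; the E10.5 maxilla arrays carry batch 4 and the E12.5 maxilla arrays batch 2.

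The maxillary process is a bud of neural crest mesenchyme under a sheet of surface ectoderm, with a core that receives vessels, muscle precursors and the maxillary branch of the trigeminal nerve. Wnt, Bmp, Fgf, hedgehog and retinoic acid signals pass between ectoderm and mesenchyme and pattern the upper jaw, its teeth and the palate. The trigeminal ganglion, whose sensory neurons innervate the face, lies at the proximal end of the jaw primordia, and the maxillary process borders the eye.

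The tissue label of these samples calls the pieces bone. Of 11 bone and osteoblast genes measured, 4 were at or under the level that cannot be told from background in both pieces: Ibsp, Dmp1, Phex and Panx3, which mark mineralising bone and osteocytes. That level is a log2 signal of 4.78, the highest 25th percentile of any of the 60 arrays, and a fold change against a group at or under it is given as a lower bound. Sp7, the osteoblast transcription factor, averaged a log2 signal of 6.89 ± 0.11 in distal maxilla and 6.41 ± 0.09 in proximal maxilla (SD, n = 3 each). The list gave 2 genes higher in distal maxilla, Sp7 and Dlx3, and 1 lower, Col1a1, which is no larger a share than among all genes, of which 18.9% were higher and 15.8% lower.

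The arrays of a piece resembled each other closely. Over all genes, the signals correlated at 0.9977 to 0.9979 among distal arrays and at 0.9984 to 0.9985 among proximal arrays, against 0.9812 to 0.9815 between the pieces. Median log2 signals of the 6 arrays lay between 6.125 and 6.168. Of 18193 genes tested with limma, 6317 (34.7%) passed an adjusted p of 0.05 between distal and proximal maxilla, 3434 (18.9%) higher in distal maxilla and 2883 (15.8%) lower. Differences of at least 2-fold were fewer and fell mostly one way, with 758 genes called (4.17%), 156 higher and 602 lower in distal maxilla. At least 4-fold differences numbered 18 higher and 187 lower. The gene lists described below hold 48 of the 156 and 108 of the 602. Counts of list members called are to be read against the 18.9% of all genes that were higher and the 15.8% that were lower. The 3 distal arrays did not overlap the 3 proximal arrays for 9561 genes (52.6%), and the median log2 difference over all genes was 0.04.

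Of the 15 genes that were lower in distal maxilla by the widest margin, 11 belong to the lists of neuron markers, ganglion transcription factors or neuronal channels and synaptic genes. The sensory neuron homeodomain factor Pou4f1 had log2 signals of 5.69, 5.83 and 5.76 in distal maxilla, against 11.21, 11.18 and 11.28 in proximal maxilla. All 3 distal arrays lay far below all 3 proximal arrays, a log2 difference of -5.46 (SE 0.30, adjusted p = 1.42e-20), which is 44.0-fold lower distally. Prph, the intermediate filament peripherin of peripheral neurons, had log2 signals of 5.55, 5.47 and 5.53 in distal maxilla, against 10.64, 10.84 and 10.78 in proximal maxilla, 37.8-fold lower in distal maxilla (adjusted p = 4.51e-24). Snap25, a membrane fusion protein of the synapse, had log2 signals of 5.14, 5.17 and 5.30 in distal maxilla, against 10.46, 10.32 and 10.35 in proximal maxilla, which is 36.2-fold lower in distal maxilla (adjusted p = 1.42e-20). In each of these genes the arrays of a piece differed by less than 0.5 on the log2 scale and the pieces did not overlap.

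**Figure D1:**
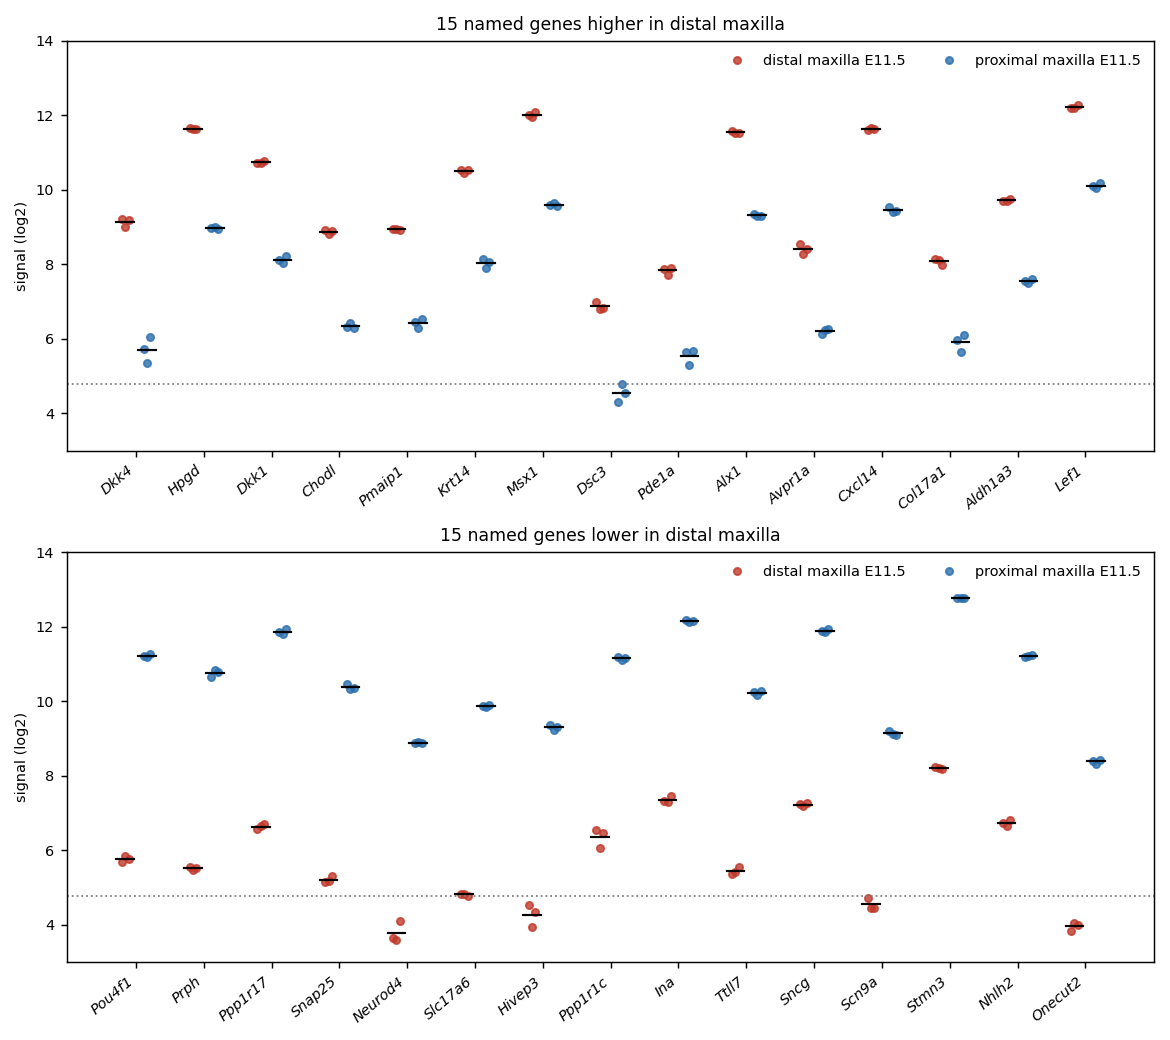
Log2 signal of the 30 named genes in each of the 3 distal (left, red) and 3 proximal (right, blue) maxilla arrays at E11.5; black bars are means of 3 arrays and the dotted line is the background limit of 4.78. Genes were named on the condition that the pieces do not overlap; the log2 difference runs to 3.43 in Dkk4 and to -5.46 in Pou4f1.

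The remaining 12 genes of that group ran from a log2 difference of -5.23 in Ppp1r17, a phosphatase inhibitor, to -4.42 in Onecut2, a homeobox gene. Of these, Neurod4, Hivep3, Scn9a and Onecut2 had a distal mean at or under the background limit. Neurod4, a basic helix-loop-helix factor of neuronal differentiation, had log2 signals of 3.64, 3.60 and 4.10 in distal maxilla, against 8.87, 8.90 and 8.88 in proximal maxilla, at least 17.1-fold lower distally. Scn9a, a voltage-gated sodium channel of pain-sensing neurons, had log2 signals of 4.73, 4.44 and 4.45 in distal maxilla, against 9.21, 9.12 and 9.09 in proximal maxilla, at least 20.5-fold lower distally. Slc17a6, the vesicular glutamate transporter of these neurons, had log2 signals of 4.83, 4.83 and 4.78 in distal maxilla, against 9.87, 9.85 and 9.90 in proximal maxilla, 33.4-fold lower, with a distal mean just above the background limit. All 15 genes passed the test in the same direction in the maxilla of E10.5, where 8.1% of all genes were lower in the distal piece, and of E12.5, where 15.7% were. In the mandible at E11.5, 2 of the 15 did so, where 5.75% of all genes were lower in the distal piece. The largest adjusted p among the 15 was 6.98e-14.

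All 18 general neuron markers measured were lower in distal maxilla, where 15.8% of all genes were, with a median log2 difference of -2.90 against 0.04 over all genes. Their summed signal ranged from 7906 to 8007 in distal maxilla and 69990 to 70540 in proximal maxilla, and none was at or under the background limit in either piece. Nefl and Nefm, the light and medium neurofilament chains, averaged 9.48 and 9.73 in distal maxilla and 13.65 and 13.496 in proximal maxilla as log2 signals. Celf3, an RNA-binding protein of neurons, had the smallest log2 difference of the list, -0.82 (adjusted p = 4.14e-05). In pieces of whole tissue, fewer cells of a type and less RNA per cell cannot be told apart, here or in any other list.

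Among transcription factors of sensory ganglia, 20 of 22 were lower in distal maxilla and 1 was higher (median log2 difference -1.57). Isl1, a LIM homeodomain factor of sensory and motor neurons, had log2 signals of 9.61, 9.49 and 9.53 in distal maxilla, against 12.72, 12.72 and 12.72 in proximal maxilla. Neurod1, which drives neuronal differentiation, averaged log2 signals of 7.34 ± 0.14 in distal maxilla and 11.75 ± 0.04 in proximal maxilla (SD, n = 3 each), 21.3-fold lower distally. Prrxl1, a homeodomain factor of nociceptive neurons, averaged 5.92 ± 0.02 in distal maxilla and 10.06 ± 0.03 in proximal maxilla, 17.7-fold lower. The neurogenin genes, which act before these factors in ganglion precursors, differed less, with log2 differences of -0.41 for Neurog1 (adjusted p = 0.00118) and -0.93 for Neurog2 (adjusted p = 0.0207). Eya1, a co-factor of cranial placodes that mesenchyme and epithelium use too, was the member that was higher distally, at a log2 difference of 1.02. Runx1 had a log2 difference of 0.15 and did not pass the test (adjusted p = 0.572).

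Promoters of 4 transcription factor genes among the 30 named genes are shown because these genes were among those with the largest differences and their windows hold a motif. They come from RefSeq on GRCm38.p6, in windows of 300 bases that span a transcript start, on the gene's strand. Capitals mark 2 E-box sequences, to which helix-loop-helix factors can bind: CAGATG, which reads as CATCTG when it lies on the opposite strand, and the palindrome CAGCTG. Pou4f1 is at chr14:104467950-104468249 on the minus strand, Nhlh2, a basic helix-loop-helix factor, at chr3:102009895-102010194 on the plus strand, Neurod4 at chr10:130280089-130280388 on the minus strand, and Lef1, which carries Wnt signals to DNA, at chr3:131112541-131112840 on the plus strand. The table holds 2 windows of Neurod4 and 4 of Lef1; the window printed is the one that holds a motif, and the others of these genes hold none of the motifs searched.
Pou4f1: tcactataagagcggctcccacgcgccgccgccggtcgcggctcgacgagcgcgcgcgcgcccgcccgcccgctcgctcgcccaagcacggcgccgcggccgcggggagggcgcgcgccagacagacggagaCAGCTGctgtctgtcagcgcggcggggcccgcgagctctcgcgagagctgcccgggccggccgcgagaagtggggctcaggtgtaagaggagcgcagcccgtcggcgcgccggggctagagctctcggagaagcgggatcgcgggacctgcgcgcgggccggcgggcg
Nhlh2: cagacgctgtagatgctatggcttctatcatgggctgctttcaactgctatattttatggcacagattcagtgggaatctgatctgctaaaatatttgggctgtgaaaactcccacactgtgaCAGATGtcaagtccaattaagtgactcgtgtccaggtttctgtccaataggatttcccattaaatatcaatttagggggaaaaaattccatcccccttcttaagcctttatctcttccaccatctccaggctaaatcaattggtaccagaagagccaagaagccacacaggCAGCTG
Neurod4: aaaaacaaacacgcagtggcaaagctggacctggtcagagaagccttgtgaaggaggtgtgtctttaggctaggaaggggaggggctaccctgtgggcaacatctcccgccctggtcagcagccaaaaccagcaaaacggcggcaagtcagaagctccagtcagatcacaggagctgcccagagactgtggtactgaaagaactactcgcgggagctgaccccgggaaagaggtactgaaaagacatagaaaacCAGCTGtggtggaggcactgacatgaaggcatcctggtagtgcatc
Lef1: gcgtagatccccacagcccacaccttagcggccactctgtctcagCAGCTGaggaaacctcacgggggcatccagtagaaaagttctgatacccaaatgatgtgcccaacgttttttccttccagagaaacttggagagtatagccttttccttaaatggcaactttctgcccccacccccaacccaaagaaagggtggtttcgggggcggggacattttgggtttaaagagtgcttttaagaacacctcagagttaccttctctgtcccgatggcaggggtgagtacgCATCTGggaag
The search covered 6 motifs on both strands in 18109 such windows of 14452 tested genes: CAGATG and CAGCTG, the homeodomain core TAATTA, the TCF/LEF core CTTTGAT, and the left part TCAGCACC and the right part GGACAGCG of the RE1 element that the neuronal repressor REST binds. None of the 6 holds another. The windows of Msx1 and Hivep3 hold none of these letters. CAGCTG was in 21.7% of 143 windows of genes at least 2-fold higher in distal maxilla and in 20.2% of 630 windows of genes at least 2-fold lower, against 16.4% of all windows. TCAGCACC was in 1.40% and 3.81% of those windows, against 1.80% of all, and GGACAGCG in 0% and 3.33%, against 1.78%. CAGATG was in 11.9% and 16.5%, against 13.4%, and TAATTA in 2.10% and 3.97%, against 3.41%. CTTTGAT was in 3.50% and 1.90%, against 2.93%. These shares describe letters in a window, several windows can belong to 1 gene, and the shares were not tested.

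Ion channels and synaptic genes of sensory neurons were lower in distal maxilla in 22 of 27 measured and higher in none, with a median log2 difference of -0.81. P2rx3, the ATP receptor of nociceptors, averaged log2 signals of 6.09 ± 0.04 in distal maxilla and 8.98 ± 0.04 in proximal maxilla (SD, n = 3 each), 7.42-fold lower distally. Scn3a, a sodium channel of developing neurons, averaged 4.83 ± 0.05 in distal maxilla and 7.78 ± 0.08 in proximal maxilla, 7.74-fold lower. The heat and cold channels Trpv1 and Trpm8 were under the background limit in both pieces, and Piezo2, the touch channel, had a log2 difference of 0.14 (adjusted p = 0.524).

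Of 7 neurotrophic ligands, 4 were higher in distal maxilla and 2 lower, and of 10 receptors 1 was higher and 7 lower. Bdnf, which supports sensory neurons that reach their targets, had log2 signals of 9.21, 9.14 and 9.07 in distal maxilla, against 7.54, 7.67 and 7.69 in proximal maxilla, 2.85-fold higher in distal maxilla (adjusted p = 1.38e-12). Ntf5, which encodes neurotrophin-4, had log2 signals of 8.47, 8.32 and 8.30 in distal maxilla, against 6.997, 7.01 and 7.18 in proximal maxilla, 2.46-fold higher distally. The distal arrays were the higher ones in both genes, with no overlap. Nrtn and Artn, ligands of the Gdnf family, were also higher, at log2 differences of 0.50 and 0.54, while Gdnf itself was lower at -0.61. Nrg1, the growth factor that neurons present to glia, had log2 signals of 5.91, 5.64 and 5.70 in distal maxilla, against 8.29, 7.95 and 8.21 in proximal maxilla, 5.28-fold lower. Gfra4 was the receptor that was higher. Gfra2, the neurturin co-receptor, differed by -2.45 and Ngfr, the shared neurotrophin receptor, by -1.24 on the log2 scale. The neuron markers, all 18 lower in distal maxilla, and the glial markers, 8 of 10 lower, moved with the receptors that were lower, and their part in those differences was not tested.

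Glial and Notch genes were lower in distal maxilla more than higher. Of 10 markers of Schwann cells and crest glia, 8 were lower and none higher, with summed signals of 3392 to 3547 in distal maxilla and 17230 to 17480 in proximal maxilla. Fabp7, a fatty acid binding protein of glial precursors, averaged log2 signals of 10.20 ± 0.04 in distal maxilla and 13.61 ± 0.02 in proximal maxilla (SD, n = 3 each), 10.7-fold lower, and Sox10, the crest and glial factor, was 3.09-fold lower. Of 19 Notch pathway genes, 10 were lower and 1 was higher. The ligands Dll1 and Dll3, which neuronal precursors display, differed by -1.50 and -1.65 on the log2 scale, and the targets Heyl and Hes5 by -2.19 and -1.24. Hey2, another Notch target, went the other way: it had log2 signals of 10.40, 10.24 and 10.21 in distal maxilla, against 8.24, 8.26 and 8.38 in proximal maxilla, 3.97-fold higher in distal maxilla with no overlap. The neuron markers, all 18 lower, moved with these glial and Notch genes, and their part in those differences was not tested.

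Skeletal muscle genes were lower in distal maxilla as well. Of 21 measured, 17 were lower and none higher, with a median log2 difference of -2.30 and summed signals of 1525 to 1630 in distal maxilla and 7230 to 7441 in proximal maxilla. Myog, the factor of muscle differentiation, had log2 signals of 6.39, 6.38 and 6.32 in distal maxilla, against 9.17, 9.17 and 9.14 in proximal maxilla, 6.96-fold lower (adjusted p = 5.27e-20). Myf5, the factor that commits muscle precursors, had log2 signals of 5.005, 4.52 and 4.58 in distal maxilla, against 7.99, 7.98 and 7.95 in proximal maxilla, at least 9.13-fold lower because its distal mean was under the background limit. The proximal arrays were high and close together in both genes. Actc1, the embryonic muscle actin, averaged 8.02 ± 0.11 in distal maxilla and 11.08 ± 0.07 in proximal maxilla, 8.38-fold lower, and Msc, a factor of branchial muscle precursors, averaged 6.25 ± 0.32 in distal maxilla and 9.09 ± 0.09 in proximal maxilla, 7.12-fold lower. Myf6 was under the background limit in both pieces.

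Fox, pigment cell, lens, and brain and eye field genes were counted as separate lists. Of 13 Fox genes measured, 8 were lower and 1 higher (median log2 difference -0.66). Foxd1, a forkhead factor of periocular mesenchyme, had log2 signals of 7.96, 7.93 and 8.12 in distal maxilla, against 10.82, 10.78 and 10.82 in proximal maxilla. Foxc2, another forkhead factor of mesenchyme, had a log2 difference of -1.84. Foxf1, a hedgehog target, was the member higher distally, at a log2 difference of 0.43. Of 8 pigment cell genes, 5 were lower and none higher, with summed signals of 608 to 636.2 in distal maxilla and 1197 to 1234 in proximal maxilla. Dct, a melanin synthesis enzyme, had log2 signals of 5.54, 5.51 and 5.56 in distal maxilla, against 7.46, 7.33 and 7.34 in proximal maxilla. Of 12 lens genes, 4 were lower and 1 higher (41.7% called, against 34.7% of all genes). Cryba1, a crystallin, averaged log2 signals of 4.53 ± 0.32 in distal maxilla and 7.69 ± 0.08 in proximal maxilla and was at least 7.52-fold lower, while the lens genes Mip and Cryba4 were under the limit in both pieces. Of 16 brain and eye field genes, 4 were lower and 1 higher (31.2% called, against 34.7% of all genes), with a list median of -0.09. Of the 16, 4 were at or under the background limit in both pieces. Six6, a homeobox gene of the eye and pituitary in this list, had log2 signals of 4.81, 4.55 and 4.70 in distal maxilla, against 7.34, 7.08 and 7.26 in proximal maxilla, at least 5.45-fold lower, whereas the eye field genes Rax, Pax6 and Six3 did not pass the test. Pituitary and oral roof genes were lower in 4 of 8 and higher in 1, and olfactory placode genes were lower in 4 of 12 and higher in 4. Both lists share genes with lists given above, among them Isl1 and Six6 in the pituitary list, and Neurod1 and Eya1 in the olfactory list.

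Vessel, macrophage and blood genes had list medians smaller in size than those of the neuron and skeletal muscle lists. Macrophage markers were lower in distal maxilla in 13 of 15, with Csf1r, the receptor that macrophages need, at a log2 difference of -1.19 (SE 0.10, adjusted p = 1.19e-14) and a list median of -0.58. Their summed signals were 2093 to 2215 in distal maxilla and 3372 to 3465 in proximal maxilla. Endothelial markers were lower in 8 of 17 and higher in 1, with Kdr, the main receptor for vascular endothelial growth factor, at a log2 difference of -0.58 (list median -0.20). Of 12 erythroid genes, 1 was higher and 1 lower (16.7% called, against 34.7% of all genes), with a list median of 0.36. None of 4 sex-linked transcripts was called, at log2 differences from -0.47 to 0.54. The arrays of the pieces did not overlap in any of these 4, where they did not in 52.6% of all genes.

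Of 18 cartilage genes, 8 were lower in distal maxilla and 1 was higher, where 15.8% of all genes were lower and 18.9% higher. Sox9, the master factor of cartilage, averaged log2 signals of 8.09 ± 0.03 in distal maxilla and 8.91 ± 0.05 in proximal maxilla (SD, n = 3 each), and Col2a1, the main cartilage collagen, 9.03 ± 0.03 in distal maxilla and 10.07 ± 0.08 in proximal maxilla. Of 27 matrix genes, 10 were lower and 6 higher, and the share that was higher is near that of all genes. The basement membrane collagens Col4a1 and Col4a2 differed by -0.58 and -0.60 on the log2 scale, while the collagen VI genes Col6a1, Col6a2 and Col6a3 differed by 0.74, 0.71 and 0.46.

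**Figure D2:**
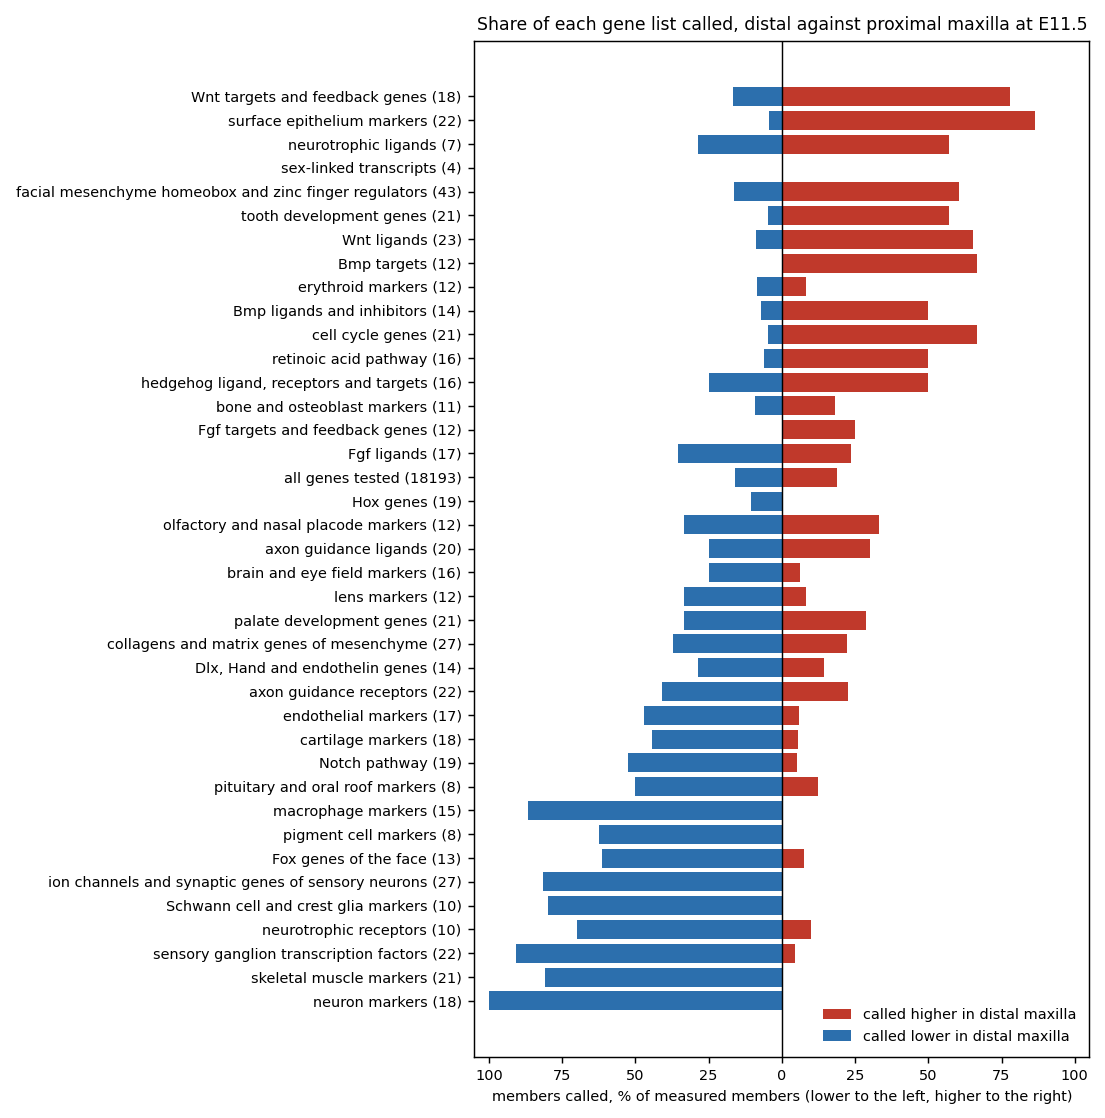
Share of the measured members of each gene list (number in brackets) called higher (red, right) or lower (blue, left) in distal than in proximal maxilla at E11.5, in percent, with lists ordered by median log2 difference; the row of all genes tested shows 18.9% and 15.8%. Neuron markers, all 18 lower, stand at the bottom, and Wnt targets and surface epithelium markers at the top.

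Surface epithelium genes were higher in distal maxilla. Of 22 markers measured, 19 were higher, where 18.9% of all genes were, and 1 was lower, with a median log2 difference of 0.92 and summed signals of 16110 to 16880 in distal maxilla and 8167 to 8446 in proximal maxilla. Krt14, the keratin of basal cells, had log2 signals of 10.53, 10.44 and 10.53 in distal maxilla, against 8.14, 7.89 and 8.05 in proximal maxilla, 5.56-fold higher (adjusted p = 1.78e-14). Trp63, the factor that establishes stratified epithelium, had log2 signals of 10.39, 10.30 and 10.32 in distal maxilla, against 8.84, 8.76 and 8.76 in proximal maxilla, 2.93-fold higher. Both genes separated the pieces on every array. Epcam and Cdh1, adhesion proteins of epithelia, differed by 1.11 and 0.91 on the log2 scale. Keratins of simple epithelium gave other values: Krt8 was lower at -0.42 (adjusted p = 0.0071), and Krt18 and Krt19 had log2 differences of 0.02 and 0.21 that did not pass the test. Among the 15 genes with the largest differences above 0 were a pair of epithelial junction genes. Col17a1, the hemidesmosome collagen, had log2 signals of 8.14, 8.12 and 7.97 in distal maxilla, against 5.97, 5.64 and 6.10 in proximal maxilla. Dsc3, a desmosomal cadherin, had log2 signals of 6.99, 6.81 and 6.82 in distal maxilla, against 4.31, 4.78 and 4.55 in proximal maxilla, under the background limit on average in proximal maxilla and at least 4.26-fold higher distally.

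The 15 genes with the largest differences above 0 combined signalling inhibitors, enzymes, epithelial genes and homeobox genes. Hpgd, which degrades prostaglandins, had log2 signals of 11.65, 11.64 and 11.63 in distal maxilla, against 8.96, 9.004 and 8.96 in proximal maxilla, 6.35-fold higher in distal maxilla. Chodl, a membrane lectin, had log2 signals of 8.92, 8.81 and 8.89 in distal maxilla, against 6.31, 6.42 and 6.30 in proximal maxilla, 5.79-fold higher. Pmaip1, a promoter of cell death also called Noxa, had log2 signals of 8.95, 8.95 and 8.93 in distal maxilla, against 6.46, 6.29 and 6.52 in proximal maxilla, 5.75-fold higher. None of these 3 genes overlapped between the pieces. Pde1a, a phosphodiesterase, Avpr1a, a vasopressin receptor, and Cxcl14, a chemokine, followed at log2 differences of 2.29, 2.20 and 2.19. Of the 15, 13 passed the test in the same direction in the E10.5 maxilla, where 12.1% of all genes were higher in the distal piece, and 13 in the E12.5 maxilla, where 23.3% were. In the mandible at E11.5, 5 of the 15 did so, where 3.18% of all genes were higher in the distal piece. The largest adjusted p among them was 5.62e-08.

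Most listed Wnt genes were higher in distal maxilla. Among ligands and R-spondins, which act outside the cell, 15 of 23 were higher and 2 lower (median log2 difference 0.39). Wnt5a, a ligand of facial mesenchyme, had log2 signals of 12.03, 12.02 and 12.09 in distal maxilla, against 10.45, 10.49 and 10.47 in proximal maxilla, 2.98-fold higher (adjusted p = 2.06e-12). Wnt9b, made by facial ectoderm, had log2 signals of 8.11, 8.001 and 7.88 in distal maxilla, against 6.35, 6.44 and 6.38 in proximal maxilla, 3.05-fold higher. Wnt3, also of the ectoderm, had log2 signals of 6.07, 6.24 and 6.16 in distal maxilla, against 4.55, 4.31 and 4.40 in proximal maxilla, under the background limit on average in proximal maxilla and at least 2.60-fold higher distally. All 3 ligands separated the pieces without overlap, and Rspo2, which strengthens Wnt signals, differed by 1.09 on the log2 scale. Wnt2 and Rspo1 were the 2 lower members, at -0.50 and -0.34, and 1 Wnt ligand instead of 2 was called lower whichever of the 6 arrays was left out.

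Wnt targets and feedback genes included the gene with the largest difference above 0. Dkk4, a secreted Wnt inhibitor and target, had log2 signals of 9.22, 9.01 and 9.18 in distal maxilla, against 5.72, 5.35 and 6.05 in proximal maxilla, a log2 difference of 3.43 (SE 0.19, adjusted p = 1.91e-20), which is 10.8-fold higher. Dkk1, a related inhibitor, had log2 signals of 10.72, 10.72 and 10.78 in distal maxilla, against 8.10, 8.04 and 8.23 in proximal maxilla, 6.12-fold higher. Lef1, for which 1 of 4 promoter windows is given above, had log2 signals of 12.21, 12.19 and 12.26 in distal maxilla, against 10.11, 10.04 and 10.18 in proximal maxilla, 4.31-fold higher. The distal arrays were above the proximal arrays throughout these genes. Of 18 listed targets and feedback genes, 14 were higher and 3 lower, with a median log2 difference of 0.94. Axin2, the feedback inhibitor used as a general readout of the pathway, averaged log2 signals of 9.86 ± 0.02 in distal maxilla and 8.996 ± 0.02 in proximal maxilla (SD, n = 3 each). Sfrp1, Sfrp2 and Dkk2, all secreted antagonists, were lower at -0.72, -0.65 and -0.48, and Lgr5 did not pass the test (log2 difference 0.02). The surface epithelium markers given above moved with the Wnt genes, and their part in these differences was not tested.

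Among Bmp ligands and inhibitors, 7 of 14 were higher in distal maxilla and 1, Bmper, was lower. Bmp4, a ligand of distal facial mesenchyme and ectoderm, had log2 signals of 11.29, 11.36 and 11.29 in distal maxilla, against 9.21, 9.21 and 9.28 in proximal maxilla, 4.22-fold higher in distal maxilla (adjusted p = 3.84e-14). Grem1, a secreted Bmp antagonist, was higher by 1.15 on the log2 scale. Msx1, a homeobox target of Bmp signals in tooth and palate mesenchyme, had log2 signals of 12.01, 11.96 and 12.09 in distal maxilla, against 9.58, 9.64 and 9.56 in proximal maxilla, 5.37-fold higher. Of 12 listed targets, 8 were higher and none lower (median log2 difference 0.38). The Id genes, direct targets, had smaller log2 differences, at 0.34 for Id1 and 0.29 for Id3. Msx2 averaged 9.68 ± 0.07 in distal maxilla and 9.01 ± 0.03 in proximal maxilla (log2 signal, SD, n = 3 each), a log2 difference of 0.67.

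Of 17 Fgf ligands, 4 were higher in distal maxilla and 6 lower, where 18.9% of all genes were higher and 15.8% lower. Fgf8, the ectodermal ligand of the early jaw, had log2 signals of 7.67, 7.48 and 7.60 in distal maxilla, against 6.24, 5.70 and 6.01 in proximal maxilla, 3.03-fold higher in distal maxilla. Fgf10, a mesenchymal ligand, was higher by 0.77 on the log2 scale, and Fgf20 and Fgf17 by 0.53 and 0.36. Among the lower ones, Fgf18, a ligand of mesenchyme, was at -1.87 and Fgf13, an intracellular family member of neurons, at -1.90. Of 12 targets and feedback genes, 3 were higher and none lower (25% called, against 34.7% of all genes). Dusp6 and Spry2, feedback inhibitors of Fgf signalling, had log2 differences of 0.01 and -0.08 and did not pass the test (adjusted p = 0.958 and 0.551).

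Of 16 hedgehog genes, 8 were higher in distal maxilla and 4 lower, where 18.9% of all genes were higher and 15.8% lower. The mediators Gli1, Gli2 and Gli3 differed by 0.47, 0.45 and 0.40 on the log2 scale, whereas the receptor and target Ptch1 differed by -0.36. The ligand Shh, with a log2 difference of -0.51, did not pass the test (adjusted p = 0.0732). In the retinoic acid pathway, 8 of 16 were higher and 1 lower, against the same shares of all genes. Aldh1a3, which makes retinoic acid from retinal, had log2 signals of 9.69, 9.69 and 9.76 in distal maxilla, against 7.55, 7.50 and 7.61 in proximal maxilla, 4.46-fold higher. Cyp26b1, which degrades retinoic acid, differed by 1.09 and Rxrg, a receptor, by -1.36. Aldh1a2, another enzyme of synthesis, had a log2 difference of -0.44 and did not pass the test (adjusted p = 0.198).

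Transcription factors of facial mesenchyme were higher in distal maxilla in 26 of 43 measured and lower in 7, with a median log2 difference of 0.44. Alx1, a homeobox gene of the frontonasal and upper face mesenchyme, had log2 signals of 11.58, 11.52 and 11.53 in distal maxilla, against 9.36, 9.30 and 9.30 in proximal maxilla, 4.67-fold higher (adjusted p = 7.92e-10). Lhx8, a LIM homeobox gene of jaw mesenchyme, had log2 signals of 11.34, 11.37 and 11.37 in distal maxilla, against 10.03, 10.07 and 10.06 in proximal maxilla, 2.47-fold higher. Pax3, a crest factor, had log2 signals of 10.36, 10.42 and 10.31 in distal maxilla, against 8.59, 8.49 and 8.54 in proximal maxilla, 3.53-fold higher. Each of these genes separated the 2 pieces. Tbx22, a palate gene mutated in human cleft palate, differed by 1.47 and Tbx2 by 1.58. The 7 lower genes were Isl1, Zic1, Zic2, Nr2f1, Nr2f2, Meox2 and Shox2, of which the nuclear receptors Nr2f1 and Nr2f2 differed by -1.01 and -1.57. Zic1, a zinc finger gene, had log2 signals of 6.07, 5.83 and 5.89 in distal maxilla, against 9.77, 9.70 and 9.83 in proximal maxilla, 14.3-fold lower, and Zic2 was at least 9.47-fold lower. Barx1 and Pax9, which mark molar tooth and palate mesenchyme, had log2 differences of -0.22 and -0.11 and did not pass the test (adjusted p = 0.211 and 0.541).

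The Dlx, Hand and endothelin genes, which set dorsal against ventral identity of the first arch, gave 2 higher and 4 lower of 14. That is 42.9% called, against 34.7% of all genes (18.9% higher and 15.8% lower). Hand2, a ventral factor of the arch, averaged log2 signals of 5.24 ± 0.13 in distal maxilla and 6.56 ± 0.03 in proximal maxilla (SD, n = 3 each) and differed by -1.32. Dlx5 and Dlx2 had log2 differences of -0.19 and -0.13 and did not pass the test. Hox genes are silent in the first arch of the embryo, and 7 of 19 measured were at or under the background limit in both pieces. The other Hox genes measured, which were the majority, were above the limit in both pieces. The median log2 signal of the list was 5.79 in distal and 5.77 in proximal maxilla. The 2 called were lower in distal maxilla: Hoxd1 at a log2 difference of -1.29 (adjusted p = 3.15e-04) and Hoxb2 at -0.58 (adjusted p = 0.0249), with 1 Hox gene called lower without distal replicate 1 or 3 or proximal replicate 1 or 2.

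Tooth and palate genes overlap in part with the signalling and homeobox lists above, so their counts are not separate evidence. Of 21 tooth genes, 12 were higher in distal maxilla and 1, Dlx1, was lower. Edaradd, an adaptor of ectodysplasin signalling, differed by 0.93. Of 21 palate genes, 6 were higher and 7 lower. Sim2, a basic helix-loop-helix factor, had log2 signals of 5.99, 5.46 and 5.67 in distal maxilla, against 8.84, 8.75 and 8.88 in proximal maxilla, 8.69-fold lower, and Meox2, a homeobox gene, differed by -1.58.

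Cell cycle genes were higher in distal maxilla in 14 of 21 and lower in 1, but by small amounts, with a median log2 difference of 0.17. Aurka and Cdk1, kinases of mitosis, differed by 0.40 and 0.35. The proliferation marker Mki67 had a log2 difference of -0.05 and did not pass the test (adjusted p = 0.637), and Ccnd1, a cyclin of early G1, was the lower member at -0.40.

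The position difference in the maxilla was set against that in the mandible of the same age and batch, from 3 distal and 3 proximal mandible arrays, by testing the difference between the differences. It passed for 4413 genes (24.3%), 2533 above 0 (13.9%) and 1880 below 0 (10.3%). Among the 12 arrays, a distal and a proximal mandible array had higher median log2 signals (6.314 and 6.253) than the others, and without them 4943 genes passed. Dkk4 had log2 differences of 3.43 in the maxilla and -0.24 in the mandible (adjusted p of the difference between jaws 2.07e-15). Chodl and Aldh1a3 were higher distally in the maxilla, at 2.53 and 2.16, and had log2 differences of -1.30 and -1.12 in the mandible. The mandible arrays spread more than the maxilla arrays. Chodl averaged log2 signals of 7.14 ± 1.45 in distal and 8.44 ± 0.99 in proximal mandible (SD, n = 3 each). Aldh1a3 averaged 5.58 ± 0.76 and 6.70 ± 0.17 there. For Tbx15, a T-box gene of mesenchyme, the log2 differences were 0.81 in the maxilla and -2.38 in the mandible. The probe set annotated to the antisense transcript Dlx1as had log2 differences of -1.22 in the maxilla and -4.33 in the mandible, so the proximal piece was the higher one in both jaws. Its SD was 1.03 in distal and 1.04 in proximal mandible.

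Neuronal genes led in the other direction. Nhlh2, Neurod4, Prph and Dcx had log2 differences of -4.47, -5.10, -5.24 and -4.33 in the maxilla, against 1.25, -0.15, -0.52 and 0.36 in the mandible. Neurod4 means were under the background limit in both mandible pieces (3.52 distal, 3.66 proximal) and in distal maxilla (3.78). Its mandible difference therefore cannot be told from background. Hivep3, a zinc finger gene, had log2 differences of -5.03 in the maxilla and -0.07 in the mandible, with a distal maxilla mean under the background limit. Of the 18 neuron markers, 17 passed the test of the difference between jaws below 0 and none above 0, and of 22 surface epithelium markers 18 passed above 0 and none below 0. Of 21 skeletal muscle genes, 15 passed below 0 and none above 0. Alx1 had log2 differences of 2.22 in the maxilla and 3.74 in the mandible, and Dkk1 2.61 and 1.78. Both were named for their difference in the maxilla, so a comparison of the jaws on them is a description.

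**Figure D3:**
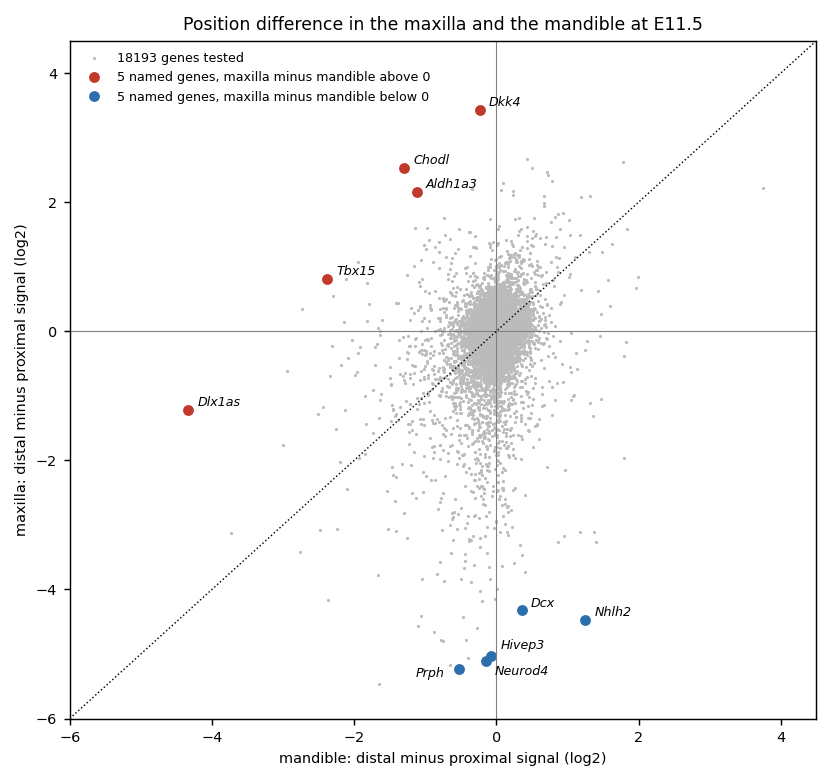
Distal minus proximal log2 signal at E11.5 in the maxilla (vertical axis) and in the mandible (horizontal axis) for every gene tested (grey), with the 10 named genes whose difference between the jaws was largest (red above 0, blue below 0); the dotted line marks equal differences. Nhlh2 lies at -4.47 in the maxilla and 1.25 in the mandible, and Dkk4 at 3.43 and -0.24.

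The position difference at E11.5 was also compared with that of neighbouring days. The tests passed for 1787 genes (9.82%) between E11.5 and E10.5 and for 3758 genes (20.7%) between E11.5 and E12.5. The E10.5, E11.5 and E12.5 arrays carry different batch labels, so a difference between these days and one between batches cannot be told apart, although both pieces of a day share a batch. The E10.5 maxilla arrays were less alike than those of E11.5, with correlations of 0.9918 to 0.9957 among distal arrays and of 0.9953 to 0.9960 among proximal arrays. Distal replicate 1 of E10.5 had a summed neuron signal of 4528, against 16090 and 12130 in the other distal arrays, and 50120 to 54150 in the proximal arrays of that day. Nhlh2 had log2 signals of 5.58, 9.17 and 8.82 in the distal arrays of E10.5, and 10.91, 11.25 and 11.01 in the proximal ones. Leaving out 1 of these 6 arrays, a setting added after seeing the data, gave 1423 to 2080 genes between E11.5 and E10.5, the most without distal replicate 1, and the 6 genes named below for that test stayed called in the same direction. The neuron list kept its direction on every day, with medians of -2.56, -2.90, -3.75, -1.61 and -3.30 from E10.5 to E14.5, and 17 or 18 of its 18 genes were lower on each day. Of all genes, 8.1%, 15.8%, 15.7%, 10.3% and 12.3% were lower on those days. Surface epithelium medians over the same days were 0.84, 0.92, 0.97, 0.55 and 1.07. The skeletal muscle medians were -0.44, -2.30, 0.19, -0.02 and -0.21. Of its 21 genes, 7 were lower in distal maxilla at E10.5 and 17 at E11.5, against none on the 2 following days and 1 at E14.5, to be read against the shares of all genes just given. The position difference at E11.5 minus that of the other day passed below 0 for 15 of the 21 against E10.5 and for 17 against E12.5. Among all genes, 7% and 11.2% passed below 0 in these 2 tests.

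**Figure D4:**
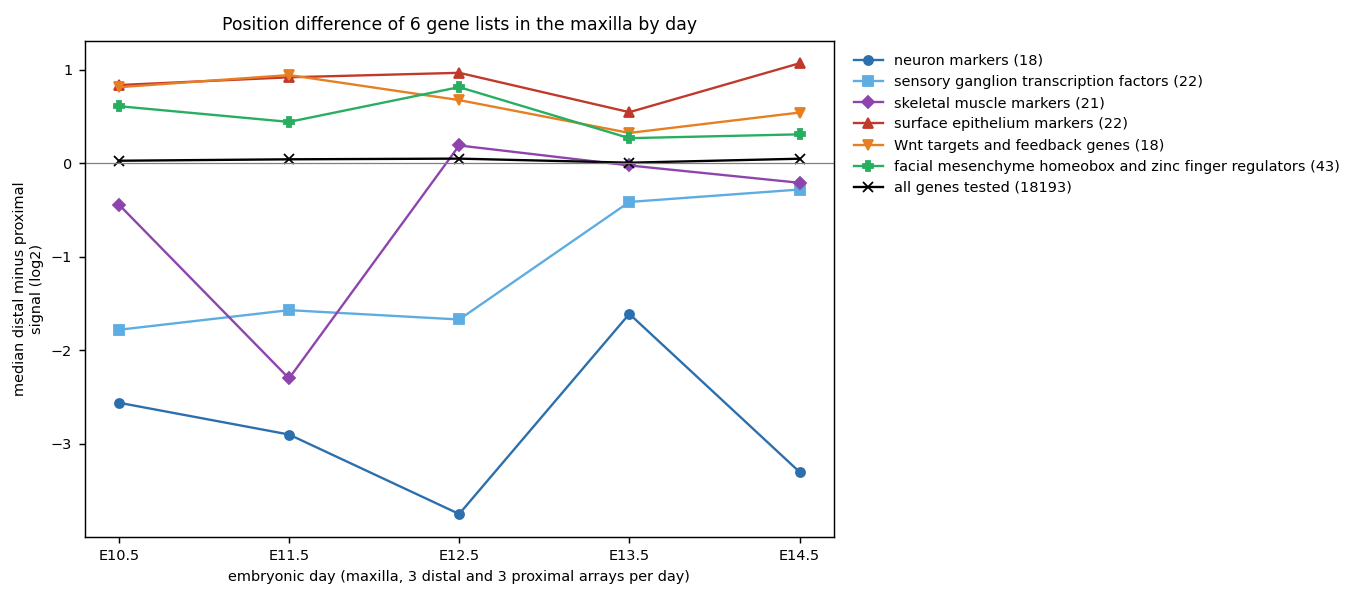
Median distal minus proximal log2 signal in the maxilla of 6 gene lists and of all genes tested, by embryonic day from E10.5 to E14.5, each day from 3 distal and 3 proximal arrays (number of genes in brackets). The skeletal muscle median lies at -2.30 at E11.5 and near 0 from E12.5 on, and the neuron median is below -1.61 or at it on every day.

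Single genes followed the days in different ways. Hey2, Chodl, Dkk4, Tac2, Six6 and Hivep3 were named for the largest changes between E11.5 and E10.5, and Gal, Ret, Msx2, Sim2, Myf5 and Tac2 for those between E11.5 and E12.5. Hey2, the Notch target, had log2 differences of -0.81 at E10.5, 1.99 at E11.5 and -0.63 at E12.5. Its log2 signals at E10.5 overlapped, at 6.29, 7.19 and 8.48 in distal and 7.79, 8.32 and 8.26 in proximal maxilla. For Dkk4 the log2 differences on the same days were 0.88, 3.43 and 1.66, and for Chodl -0.10, 2.53 and 1.55. Chodl passed the test between E11.5 and E10.5 (adjusted p = 1.78e-04) and did not between E11.5 and E12.5 (adjusted p = 0.176). Tac2, a neuropeptide gene, had log2 differences of 0.34, -3.27 and 0.44 from E10.5 to E12.5. Its log2 signals at E11.5 were 5.02, 4.97 and 4.84 in distal maxilla, against 8.11, 8.19 and 8.35 in proximal maxilla. Six6 had log2 differences of 0.88, -2.54 and 0.14, and Hivep3 -1.77, -5.03 and -4.97, with no call between E11.5 and E12.5 for Hivep3 (adjusted p = 0.916). The Six6 signals spread at E10.5, at 5.76, 5.97 and 8.38 in distal and 4.11, 6.75 and 6.60 in proximal maxilla. With the fit on only the arrays compared, Six6 did not pass between E11.5 and E10.5 (limma, adjusted p = 0.0505). Tac2 and Six6 were lower in distal maxilla at E11.5 and not called lower on the days before and after. At E13.5 Six6 was lower in distal maxilla again, at a log2 difference of -3.31 (limma, adjusted p = 9.39e-10). Its difference of -0.72 at E14.5 did not pass the test. Tac2 means lay under the background limit in both pieces at E10.5 (4.38 distal, 4.03 proximal) and at E12.5 (4.59 and 4.14). Six6 means did so at E12.5 (4.37 and 4.24). The Tac2 differences on those days and the Six6 difference at E12.5 cannot be told from background. Against E12.5, Gal, another neuropeptide gene, had a log2 difference of -0.54 at E11.5 and -4.34 at E12.5. Ret, the receptor of Gdnf family ligands, was at -0.03 at E11.5, which did not pass the test, and at -3.65 at E12.5. Msx2 was at 0.67 at E11.5 and -2.67 at E12.5. Sim2 and Myf5 had log2 differences of -3.12 and -3.27 at E11.5, against 0.78 and 0.58 at E12.5.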

How the data were processed

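Total RNA of mouse embryonic jaw pieces (3 micrograms, with Qiagen extraction, cDNA synthesis and biotin labelling per the labels' protocols) was hybridised to a mouse expression array of 45101 probe sets. The values are log2 signals as deposited by the authors. RMA is named in the submitters' processing notes without a version; the annotation files behind it and the genome build are not given in the sources used here. Values ranged from 2.542 to 14.812, and the number of arrays limits the precision.

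Probe sets were named from the platform annotation of 2016: 34945 had 1 symbol, 932 several and 9160 none, and 64 were controls. Of the named ones, 34741 matched a RefSeq gene. Each of 18193 genes took its probe set of highest mean over the 60 arrays. Another probe set was called the other way for 45 called genes, none among the 30 named ones; among list genes these were Pdgfra, Cacna1b, Ets1, Dhh and Kcna1.

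limma 3.58.1 in R 4.3.3 fitted 20 group means to 60 arrays (eBayes with trend, two-sided, Benjamini-Hochberg adjustment over all genes). An adjusted p under 0.05 is a call, an SD is over 3 arrays and an SE is the fit's. The fit was tested on simulated data. A list's summed signal is the sum of the linear signals of its genes on an array. The 38 lists and the comparison were chosen with earlier results of these data known. Named genes are the 15 called ones with the largest difference in each direction with a mean log2 signal of at least 6 in the higher group, no overlap and an official symbol that is not sex-linked, then 5 per direction for the jaws and 3 per direction for each pair of days, and list members. The limit of 4.781 (highest 25th percentile of an array) stands for background. In the labels the replicate numbers name arrays. Deviations from group means of same-numbered distal and proximal arrays correlated at 0.038, 0.028 and -0.033, so the numbers were not taken as pairs. Arrays of a group were compared for duplicates, and at most 0.408% of values were identical between 2 arrays. Figures were drawn with matplotlib 3.10.9.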

Additional observations from a re-analysis of the deposited data

Results flagged for a closer look

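The position difference of these genes differed from that in the mandible, or from that of a neighbouring day, in limma's test of the difference itself (adjusted p under 0.05). Against the mandible, the log2 difference was greater in the maxilla by 3.83 for Chodl, 3.67 for Dkk4, 3.28 for Aldh1a3, 3.19 for Tbx15 and 3.11 for the probe set annotated to Dlx1as. It was more negative in the maxilla for Nhlh2 (-5.72), Hivep3 (-4.96), Neurod4 (-4.96), Prph (-4.72) and Dcx (-4.68). Hivep3 and Neurod4 had a distal maxilla mean under the background limit, and Neurod4 was also under it in both mandible pieces. Between E11.5 and E10.5, the changes above 0 were Hey2 (2.79), Chodl (2.63) and Dkk4 (2.55), and those below 0 were Tac2 (-3.61), Six6 (-3.42) and Hivep3 (-3.26). For E11.5 minus E12.5, the values above 0 were Gal (3.80), Ret (3.62) and Msx2 (3.34), and those below 0 were Sim2 (-3.90), Myf5 (-3.85) and Tac2 (-3.71). A value above 0 here means a higher position difference at E11.5 than on the following day. Tac2 was under the background limit in both pieces at E10.5 and at E12.5. The distal means of Six6, Hivep3 and Myf5 were under it at E11.5, so their differences on that day are taken against background. Groups of 3 arrays were not tested for single outlying arrays. The spread of the E10.5 arrays is given above for Hey2 and Six6, and not for the other genes named between these days. The days carry different batch labels, and day and batch cannot be told apart.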

How the results depend on the processing

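None of the 52 named gene differences changed direction under the alternative settings run. Of the named values, 1 lost its call: Six6 between E11.5 and E10.5, with the fit on only the arrays compared (adjusted p = 0.0505, against 1.07e-07 to 3.89e-05 under the other alternatives). List medians near 0 (olfactory, Fgf ligand, palate, Hox and bone lists) took the other sign under at least 1 setting. Taking all probe sets as units gave 10446 calls between distal and proximal maxilla (5567 higher, 4879 lower), 1279 of at least 2-fold, 7080 between the jaws and 5875 between E11.5 and E12.5. With only the arrays compared, 8343 genes were called between distal and proximal maxilla and 2933 between the jaws. Array quality weights gave 7774 between the jaws, 3234 between E11.5 and E10.5 and 6496 between E11.5 and E12.5, where the weights stopped short of convergence. Leaving out 1 of the 6 arrays gave 5490 to 5643 calls, 2815 to 3078 higher, 2530 to 2683 lower, 746 to 761 of at least 2-fold, 3895 to 4135 between the jaws, 1408 to 1582 between E11.5 and E10.5 (1423 to 2080 on leaving out 1 of the 6 maxilla arrays of E10.5) and 3211 to 3400 between E11.5 and E12.5. Centring each array on its median moved the higher share of the calls to 60.8%, against 54.4%. With the replicate number as a fixed block (replicate block), 6237 genes were called, and as a random block 6376; the block moved no count by over 1.5 times. Of the list counts, 92 moved by more than 1.5 times and 948 did not, and of the list medians 62 moved by at least the SD of the list's level between replicate arrays and 546 by less. Leaving out any of the 6 arrays left 1 Wnt ligand called lower instead of 2, and no erythroid gene called higher. The settings without the 2 mandible arrays of highest median and without 1 array of E10.5 were chosen after seeing the data. Of the genes tested, 2867 were at or under the background limit in both pieces, and no fold is given for them.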

Other observations

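Axon guidance genes were called in both directions. Of 20 ligands, 6 were higher in distal maxilla and 5 lower, and of 22 receptors, 5 were higher and 9 lower, where 18.9% of all genes were higher and 15.8% lower; the share of receptors that were higher is near that of all genes. Without proximal replicate 2, 3 receptors were higher. Nrp1, a semaphorin receptor of axons and vessels, averaged log2 signals of 9.85 ± 0.07 in distal maxilla and 11.76 ± 0.02 in proximal maxilla (SD, n = 3 each), a log2 difference of -1.91. Sema3a, a repulsive ligand of that receptor, had a log2 difference of 0.54, and Sema3d, of the same family, 0.76. Ntn1, a netrin ligand, had a log2 difference of -1.09, and its receptor gene Dcc -0.80. Unc5b and Unc5d, receptors that mediate repulsion from netrin, were higher in distal maxilla, at 0.73 and 0.88. The neuron markers, all 18 lower in distal maxilla, moved with the receptors that were lower, and their part in those differences was not tested.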
